A study of Mus musculus with 6 samples.

Results

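*Apoa1*, *Apoa2*, *Apoa4*, *Apoa5*, *Apob*, *Apoc1*, *Apoc3*, *Apoe*, *Apom* and *Mttp*, which encode 9 apolipoproteins and the microsomal triglyceride transfer protein, were followed in cultured mouse hepatocytes with and without the succinate receptor gene *Sucnr1*. The 10 genes were taken by symbol from the deposited table of 25184 genes, and all 10 were measured in every library. The table came from stranded paired-end mRNA sequencing of primary hepatocytes from 6 mice, 3 *Sucnr1* fl/fl (called controls below) and 3 Hep-*Sucnr1* KO (called KO). All 6 mice carried floxed *Sucnr1* alleles and had been fed chow, and their hepatocytes were kept in culture overnight. The Hep-*Sucnr1* KO mice also carried 1 copy of Alb-Cre (from mice of C57BL6J background), a Cre recombinase under the albumin promoter that acts in hepatocytes and deletes the floxed exon 2, and the *Sucnr1* fl/fl controls were Cre-negative. The cells had been plated on collagen in a high-glucose medium with serum, so the levels are those of attached cells and not of liver tissue. The age and sex of these mice are not given in the sources used here. RNA was extracted on day 1 from 1 mouse of each genotype and on day 2 from 2 mice of each genotype.

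Apolipoproteins are the protein part of lipoprotein particles, which carry triglyceride and cholesterol in blood, and hepatocytes make many of those found on very-low-density lipoprotein (VLDL) and high-density lipoprotein (HDL). *Apob* encodes the structural protein of VLDL, which MTTP loads with lipid in the endoplasmic reticulum as it is translated. *Apoa1* and *Apoa2* encode the main proteins of HDL, and the smaller exchangeable apolipoproteins move between particles, where they govern lipolysis by lipoprotein lipase and uptake by receptors.

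The libraries held between 30504248 and 38770694 counts, and *Apom*, the least counted of the 10 genes, had 4782 in its lowest library. Values are CPM (counts scaled to the library total), with totals adjusted by the trimmed mean of M values (TMM). *Sucnr1* itself, the label check, stood at 6.71, 3.55 and 3.40 CPM in control replicates 1, 2 and 3 and at 2.66, 0.827 and 0.152 CPM in KO replicates 3, 4 and 5. The groups did not overlap, although KO replicate 3 lay closest to the controls (log2 fold change −2.23 ± 0.54 SE; edgeR adjusted p = 0.998, DESeq2 adjusted p = 0.0316). The 10 hepatocyte markers summed to between 52134 and 85993 CPM, with albumin alone at 3.67 to 6.61% of all counts. Markers of other liver cells were low: the summed level of 10 Kupffer cell and macrophage genes was 56.4 to 181 CPM in control and 37.5 to 139 CPM in KO libraries, that of 8 sinusoidal endothelial genes 27.7 to 53.3 and 23.0 to 36.4 CPM, and that of 7 stellate cell genes 9.49 to 33.9 and 7.85 to 13.6 CPM. The 6 cholangiocyte genes summed to 356 to 518 CPM and 434 to 657 CPM, nearly all of it from *Spp1* and *Sox9*, while the defining *Krt19* did not exceed 0.89 CPM in any library and *Krt7* was at 0 in at least 1 library. These sums overlapped between the genotypes.

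The genes lie at several places in the mouse genome (GRCm38). *Apoa1* (chr9:46228580-46230466, plus strand), *Apoc3* (chr9:46232933-46235636, minus strand), *Apoa4* (chr9:46240696-46243459, plus strand) and *Apoa5* (chr9:46268633-46271919, plus strand) form a cluster of 43.3 kb, and *Apoc1* (chr7:19689481-19692660) lies beside *Apoe* (chr7:19696109-19699188) within 9.71 kb, both on the minus strand. *Apoa2* (chr1:171225054-171226379, plus), *Mttp* (chr3:138089854-138144968, minus), *Apob* (chr12:7977648-8016835, plus) and *Apom* (chr17:35128997-35132050, minus) lie apart from them. Start-site windows from RefSeq (GRCm38.p6), each of 300 bases from 250 before to 50 after an annotated start, were at hand for 8 of the 10 genes, not for *Apoc1* and *Apoc3*. The windows of *Apoa1*, *Apoa4* and *Apoa5* are shown because these 3 genes are neighbours of which the first 2, as described below, ranked the libraries alike and the third did not. Capitals mark matches, on either strand, to CAAAGTNCA, a motif of the HNF4 type, and to TATAAA, the box found shortly before the start of many genes.
Apoa1 (chr9:46228380-46228679, plus strand): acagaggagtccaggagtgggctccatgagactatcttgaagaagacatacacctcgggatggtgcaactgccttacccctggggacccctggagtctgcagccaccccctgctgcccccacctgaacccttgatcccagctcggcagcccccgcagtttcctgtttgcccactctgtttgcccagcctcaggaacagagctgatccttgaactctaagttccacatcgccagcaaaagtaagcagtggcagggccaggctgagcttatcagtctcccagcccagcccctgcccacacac
Apoa4 (chr9:46240594-46240893, plus strand): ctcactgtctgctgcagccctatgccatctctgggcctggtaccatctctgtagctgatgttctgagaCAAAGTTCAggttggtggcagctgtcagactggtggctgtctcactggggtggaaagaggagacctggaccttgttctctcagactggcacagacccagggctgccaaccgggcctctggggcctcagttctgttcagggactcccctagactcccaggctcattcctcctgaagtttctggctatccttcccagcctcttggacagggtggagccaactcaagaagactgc
Apoa5 (chr9:46268358-46268657, plus strand): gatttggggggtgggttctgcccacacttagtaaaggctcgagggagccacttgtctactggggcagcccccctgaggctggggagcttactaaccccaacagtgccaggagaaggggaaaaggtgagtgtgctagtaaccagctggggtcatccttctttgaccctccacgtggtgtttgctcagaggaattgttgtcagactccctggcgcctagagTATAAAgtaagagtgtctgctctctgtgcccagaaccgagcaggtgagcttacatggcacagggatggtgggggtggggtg

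HNF4A is a hepatocyte nuclear receptor known to act on many apolipoprotein genes. The exact string CAAAGTNCA, a form of its motif, stood in the *Apoa4* window only, among the 12 windows of the 8 genes. Its first base lay 182 bases before the start, and the string was found in 1.41% of all 32851 windows. Other forms of the motif were not searched. The second string, TATAAA, stood 31 bases before the *Apoa5* start shown and in 5 of the 12 windows (of *Apoa2*, *Apoa5*, *Apob* and *Apoe*, with 2 overlapping windows of *Apoa5*), against 13.6% of all windows. The 2 *Apoa5* windows share the same site, which lies at −56 from the other start. The remaining matches began farther from their starts, at −212 (*Apoa2*), −100 and −96 (*Apoe*) and −60 (*Apob*). The *Apoa1* window held neither of these strings. Such a match describes the letters only, and RefSeq starts can differ from the gene bounds given above.

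Per kilobase of exon, transcript levels of the 10 genes spanned a wide range, with several clear steps in their order. *Apoe*, a ligand for the receptor-mediated uptake of remnants, led with 5634 ± 419 CPM per kb (SD, n = 6 libraries), followed by *Apoa2* at 5470 ± 356, *Apoa1* at 3995 ± 275, *Apoc1* at 2235 ± 148 and *Apoc3* at 882 ± 91.3 CPM per kb. *Apoe* and *Apoa2* overlapped and stood in this order in 4 of 6 libraries, whereas *Apoa2*, *Apoa1*, *Apoc1* and *Apoc3* each stood clear of the next in all 6. *Apob*, *Apoa4*, *Apom* and *Apoa5* followed at 210.6, 176, 161 and 146 CPM per kb, and each overlapped its neighbour. *Mttp* was the lowest at 31.1 ± 3.59 CPM per kb, below *Apoa5* in all 6 libraries. The order also rests on 1 exon length per gene, the union of its annotated exons. Agreement between libraries cannot test that length. In raw counts, *Apoe* made up 43.2 to 47.3% of the counts of the 10 genes and 1.16 to 1.28% of all counts in a library, and only 3 of the 15105 tested genes had a higher mean CPM. All 10 genes together took 2.636, 2.686 and 2.701% of all counts in the control libraries and 2.634, 2.621 and 2.583% in the KO libraries. These shares did not overlap (means 2.67 ± 0.03 and 2.61 ± 0.03%, SD, n = 3). The gap was narrow, with control replicate 1 at 2.636% and KO replicate 3 at 2.634%. Among single tested genes, 10.6% did not overlap in CPM between genotypes. The summed TMM-scaled levels of the 10 genes, 24631 to 28330 CPM against 25758 to 26934 CPM, overlapped.

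**Figure D1:**
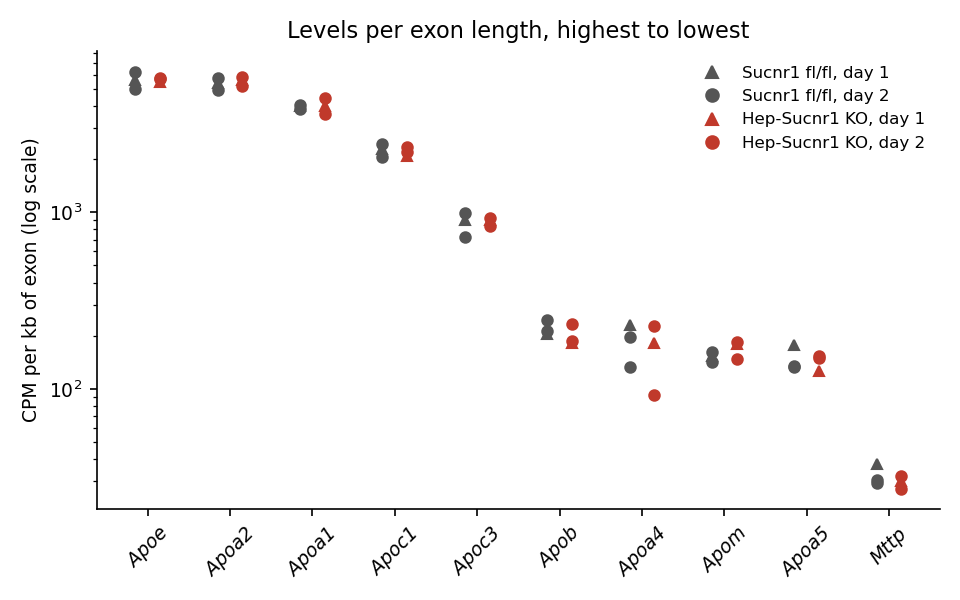
Level of each gene per kilobase of exon (CPM per kb, log scale), 1 point per library, grey for Sucnr1 fl/fl and red for Hep-Sucnr1 KO, triangles for extraction day 1 and circles for day 2. The genes fall from about 5634 CPM per kb for Apoe to 31.1 CPM per kb for Mttp, and the genotypes overlap for every gene.

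The comparison of genotypes asks whether loss of the receptor in hepatocytes went with another level of the lipoprotein genes, since the study examined SUCNR1 as a sensor of nutrient state in these cells. None of the 10 genes was called: 0 of 10 passed an adjusted p of 0.05 in edgeR's quasi-likelihood test with extraction day as covariate, where 0% of the 15105 tested genes did. At an unadjusted p under 0.05 the count was 0 of 10, against 3.72% of all genes, and DESeq2 called 0 of 10, against 0.0463%. The CPM values of the genotypes overlapped for all 10 genes, whereas they did not overlap for 10.6% of tested genes. Exact two-sided permutation tests on the CPM of each gene gave p between 0.3 and 1.0, with 0.1 the smallest that 3 against 3 libraries allow. Of the genes, 5 had a log2 fold change above 0 and 5 below, with a median of −0.01, where 50.5% of all tested genes lay above 0 and their median was 0.00. Regardless of sign, the median change was 0.05 on the log2 scale, against 0.14 over all genes, and the median SE was 0.16 against 0.20. These medians are not matched for abundance: all 10 genes had a mean above 100 CPM, while tested genes went down to a mean normalized count of 5.

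Transcripts of the VLDL assembly pair overlapped between the genotypes. *Apob* read 2852, 3418 and 2949 CPM in control replicates 1, 2 and 3 and 2521, 3257 and 2608 CPM in KO replicates 3, 4 and 5. The highest library of each genotype was an extraction-day-2 library. Replicates 3 and 5 of the KO lay below all controls, and KO replicate 4 lay above 2 of the 3. The *Apob* log2 fold change was −0.14 ± 0.17 (SE; edgeR adjusted p = 0.998), a fold of 0.909 with a 95% interval of 0.691 to 1.19. *Mttp* read 234, 181 and 188 CPM in the controls and 187, 199.6 and 169 CPM in the KO libraries. Control replicate 1 was the highest of the 6, and the remaining values of the genotypes were intermixed. The *Mttp* log2 fold change was −0.11 ± 0.13 (fold 0.928, 95% interval 0.746 to 1.15; adjusted p = 0.998). Without control replicate 1 it came to 0.00, and without KO replicate 3 to −0.009. In both settings the genotype estimate rests on the day-2 libraries, since day is a covariate and day 1 had 1 library of each genotype. The log2 ratio of *Mttp* to *Apob* counts, which does not depend on the scaling of libraries, was −3.94 ± 0.32 in control and −3.91 ± 0.14 in KO (SD, n = 3; exact permutation p = 0.9).

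Genes of HDL proteins did not differ beyond their spread, and both main ones, *Apoa1* and *Apoa2*, were among the steadiest of the 10. *Apoa1*, the main protein of HDL and the activator of LCAT, read 4968, 4764 and 5022 CPM in control and 4961, 4437 and 5473 CPM in KO libraries. KO replicates 4 and 5 were the lowest and the highest of all 6, so that the control range lay inside that of the KO. Its log2 fold change was 0.01 ± 0.17 (fold 1.01, 95% interval 0.767 to 1.32; edgeR adjusted p = 0.998), and its sign turned under several alternatives. *Apoa2*, the second HDL protein, read 2903, 2645 and 3109.8 CPM in the controls and 3021, 3141 and 2804 CPM in the KO libraries, with a log2 fold change of 0.05 ± 0.16. The genotypes overlapped, with control replicate 2 below and KO replicate 4 above all other libraries. *Apom*, which binds sphingosine 1-phosphate on HDL, read 155, 144 and 164 CPM in control and 182, 149 and 187 CPM in KO libraries. Replicates 3 and 5 of the KO lay above all controls and replicate 4 among them, and the log2 fold change of 0.16 ± 0.13 was the largest rise in estimate of the 10 (fold 1.12, 95% interval 0.896 to 1.39; adjusted p = 0.998). Leaving out KO replicate 4 left 2 of the 10 genes without overlap between genotypes, *Apom* (log2 fold change 0.26) and *Apob* (−0.24), against 20.5% of all tested genes in that setting, and neither was called.

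The apolipoproteins that regulate lipolysis showed no shared direction. *Apoc3*, which inhibits lipoprotein lipase and remnant uptake, read 916, 732 and 999 CPM in control and 921, 853 and 946 CPM in KO libraries, with a log2 fold change of 0.04 ± 0.16. All KO values lay within the range of the controls. *Apoc1*, an inhibitor of receptor-mediated uptake, read 1709, 1537 and 1803 CPM against 1549, 1755 and 1624 CPM (log2 fold change −0.04 ± 0.15), again within the control range. *Apoa5*, which enhances lipolysis of triglyceride-rich particles, read 445, 337 and 338 CPM in the controls and 320.0, 377 and 386 CPM in the KO libraries. On day 1 the KO library was the lower of the pair (log2 difference −0.48, 1 library each), and on day 2 both KO libraries lay above both controls (log2 difference 0.18). The interaction of genotype and day for *Apoa5* was 0.65 ± 0.28 on the log2 scale (unadjusted p = 0.0587, edgeR adjusted p = 0.9997), and over both days its log2 fold change was −0.04 ± 0.16.

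*Apoe* differed between genotypes by less than its spread. It read 11976, 10633 and 13402 CPM in control and 11767, 12169 and 12326 CPM in KO libraries, so the KO values lay inside the wider control range. The log2 fold change was 0.01 ± 0.18 (fold 1.01, 95% interval 0.745 to 1.36; edgeR adjusted p = 0.998), with a sign that turned under other scalings. *Apoe* is also made by macrophages. The 10 Kupffer cell and macrophage genes summed to 82.2, 56.4 and 181 CPM in control replicates 1, 2 and 3 and to 37.5, 139 and 123 CPM in KO replicates 3, 4 and 5, all 10 had a genotype log2 fold change below 0, and none had an unadjusted p under 0.05 for genotype. For extraction day 6 of these 10 genes had an unadjusted p under 0.05, against 7.49% of all tested genes (median log2 difference 2.06, day 2 over day 1). For the interaction 4 of the 10 had, against 3.69% of all tested genes, while *Apoe* differed by 0.03 ± 0.19 between days. The library highest in these genes, control replicate 3, was also the highest in *Apoe*, and the lowest, KO replicate 3, was not the lowest in *Apoe*. Their part in the *Apoe* values was not tested, and fewer cells of a type and less RNA per cell cannot be told apart in such bulk samples. The log2 ratio of *Apoc1* to its neighbour *Apoe* ranged over only 0.135 across the 6 libraries (−2.83 ± 0.06 in controls, −2.88 ± 0.08 in KO; SD, n = 3; exact permutation p = 0.3).

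**Figure D2:**
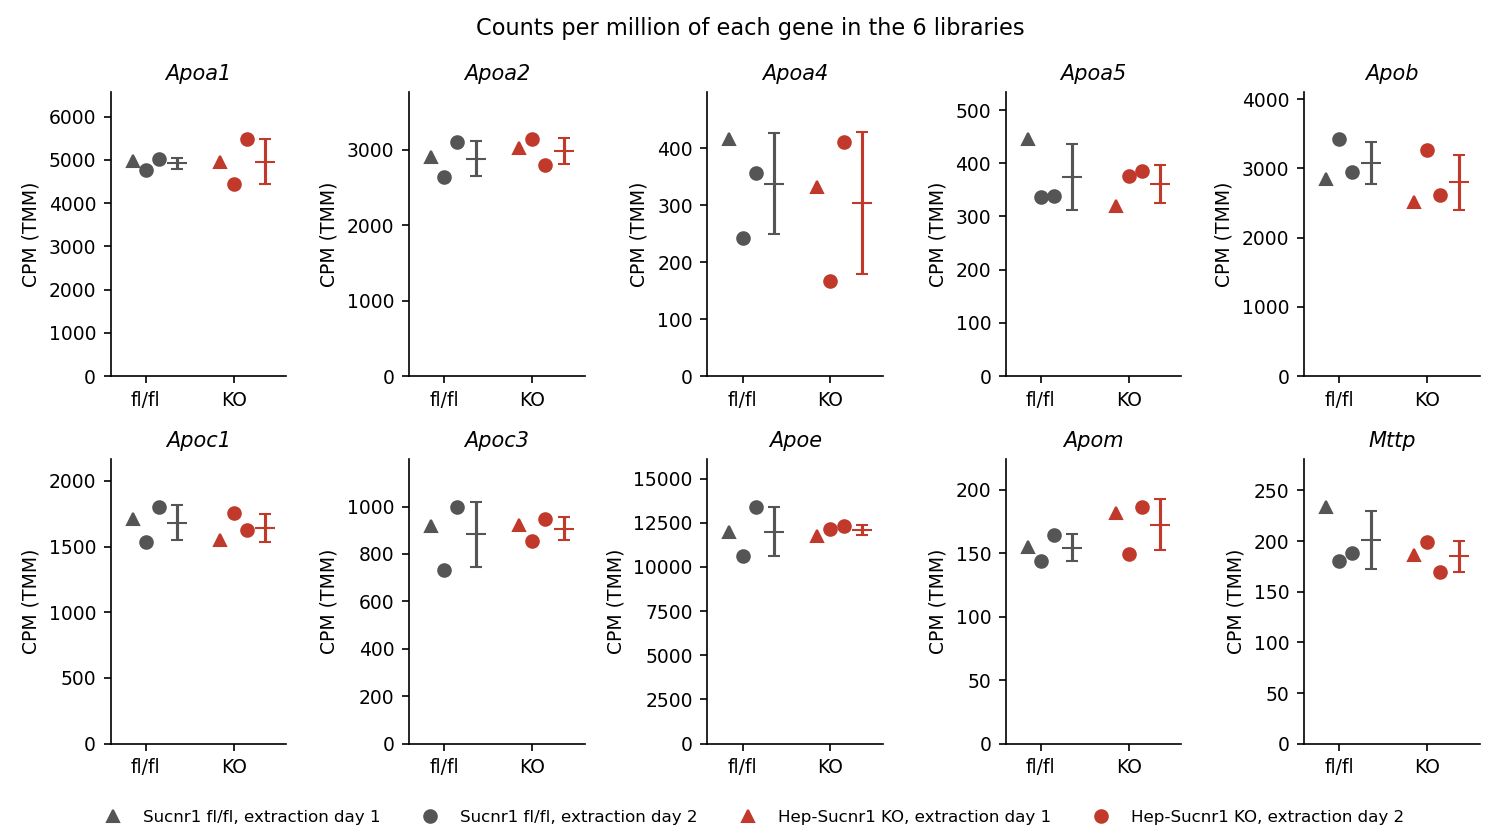
CPM (TMM-scaled) of each of the 10 genes in the 3 Sucnr1 fl/fl (grey) and 3 Hep-Sucnr1 KO (red) libraries, with the mean and SD beside the points and triangles for extraction day 1, circles for day 2. The genotypes overlap in every panel, and Apoa4 shows the widest scatter, from 167 to 415 CPM.

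*Apoa4* varied far more between libraries than the other 9 genes, and its genotypes overlapped. This apolipoprotein of chylomicrons and HDL is made chiefly by the intestine and, in mice, also by hepatocytes. It read 415, 242 and 356 CPM in control replicates 1, 2 and 3 and 331, 167 and 411 CPM in KO replicates 3, 4 and 5. Replicate 2 of the controls and replicate 4 of the KO, both extracted on day 2, were low, while the other 2 libraries of that day were not. Highest and lowest differed 2.49-fold, against 1.17- to 1.39-fold for the other 9 genes. The SD of its log2 CPM over the 6 libraries was 0.513, larger than that of 93.5% of the 1249 genes with a mean of at least 100 CPM (median SD 0.183), whereas *Apoa2*, *Apoc1* and *Apoa1*, with SDs of 0.0953, 0.0957 and 0.0992, had larger SDs than only 12.2, 12.3 and 13.5% of them. The genotype difference of *Apoa4* was correspondingly the least certain: log2 fold change −0.14 ± 0.33, a fold of 0.907 with a 95% interval of 0.525 to 1.57 (edgeR adjusted p = 0.998). Its estimate was −0.62 when KO replicate 5 was left out and 0.13 when replicate 4 was. Of the enterocyte genes listed beside *Apoa4*, *Fabp2* stood at 17.5 to 27.0 CPM, *Vil1* did not exceed 0.301 CPM, and *Lct* and *Cdx2* were at 0 in at least 1 library and did not exceed 0.0902 CPM.

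**Figure D3:**
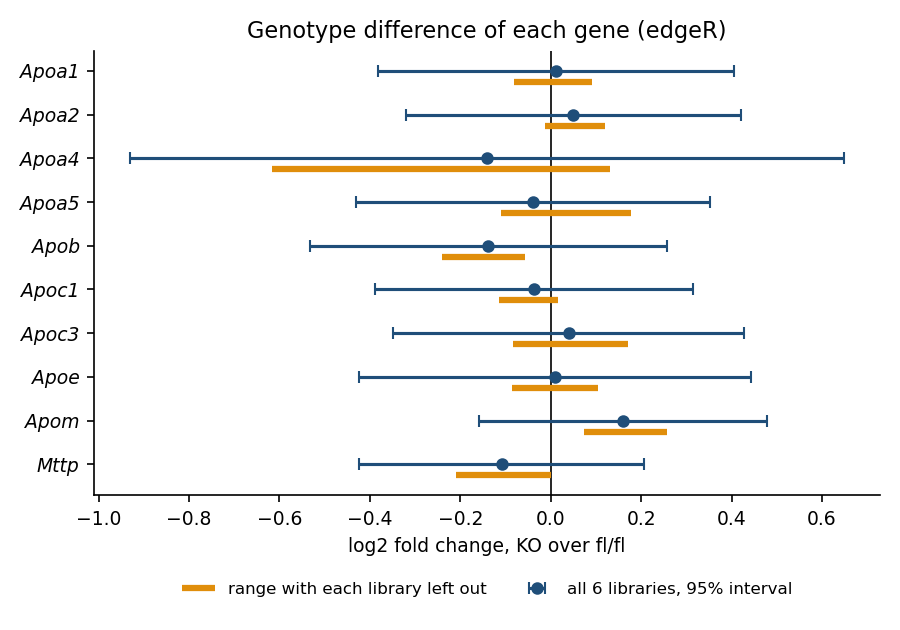
Log2 fold change of Hep-Sucnr1 KO over Sucnr1 fl/fl for each gene (edgeR, blue points with 95% intervals) and, in orange, the range of the estimate when each library was left out in turn. All 10 intervals include 0, and that of Apoa4 is the widest, from −0.93 to 0.65.

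*Apoa1* ranked the libraries much as its cluster neighbour *Apoa4* did, and both correlated with the level of periportal genes over the 6 libraries. This relation was noticed in these values before it was computed, so the p-values below, from the same libraries, cannot test it. Hepatocytes near the portal vein and near the central vein express different genes, and 8 landmark genes of each zone (periportal *Cyp2f2*, *Hal*, *Sds*, *Pck1*, *Arg1*, *Ass1*, *Gls2* and *Hsd17b13*; pericentral *Glul*, *Oat*, *Cyp2e1*, *Cyp1a2*, *Slc1a2*, *Lgr5*, *Axin2* and *Rhbg*) were summarised per library as the median log2 difference from each gene's mean. The periportal level was −0.56 in KO replicate 4 and −0.34 in control replicate 2, the lowest pair, and 0.41 in KO replicate 5. The pericentral level was 1.18, 0.19 and −0.84 in the same libraries. Over the 6 libraries *Apoa1* correlated with the periportal level at Pearson r = 0.918 (exact permutation p = 0.00139, adjusted over 20 relations p = 0.0278) and Spearman rho = 1.0 (exact permutation p = 0.00278, adjusted p = 0.0556). For *Apoa4* the values were r = 0.961 (exact permutation p = 0.00556, adjusted p = 0.0278) and rho = 0.829 (exact permutation p = 0.0583, adjusted p = 0.233). Against the pericentral level, *Apoa1* had r = −0.962 (exact permutation p = 0.00278, adjusted p = 0.0278) and *Apoa4* r = −0.931 (exact permutation p = 0.00417, adjusted p = 0.0278), each with rho = −0.943 (exact permutation p = 0.0167, adjusted p = 0.111). Without the 2 libraries farthest from the median of the list, r fell to 0.750 for *Apoa1* and 0.769 for *Apoa4* with the periportal level, and came to −0.717 and −0.819 with the pericentral level, over 4 libraries, so that the correlations rest in part on those left out. Over the same 4 libraries *Apoc1* (r = −0.955) and *Apoe* (−0.779) also correlated with the pericentral level, although over all 6 they stood at 0.121 and −0.245. With the periportal level the largest other value over 4 libraries was −0.531 (*Apoa2*). Among the 4 day-2 libraries alone r was 0.946 for *Apoa1* and 0.982 for *Apoa4* with the periportal level. With the pericentral level it was −0.986 and −0.988. With library size as the only scaling, *Apoa1* had r = 0.635 and −0.667, while *Apoa4* had 0.967 and −0.919. The 4 relations are not separate findings, because *Apoa1* and *Apoa4* correlated with each other (r = 0.887 over the 6 libraries). The periportal and pericentral levels also lay on opposite sides of 0 in each library given above. Such a correlation was not particular to *Apoa1* and *Apoa4*. *Apob* and *Apom* (r = −0.939) and *Apoc3* and *Apoe* (r = 0.901), each pair on separate chromosomes, correlated more strongly over the 6 libraries. By Spearman rho the lowest adjusted p (exact permutation) of all 20 relations was 0.0556. By Pearson r the remaining 16 relations had an adjusted p (exact permutation) of 0.322 or more. No cause was tested.

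**Figure D4:**
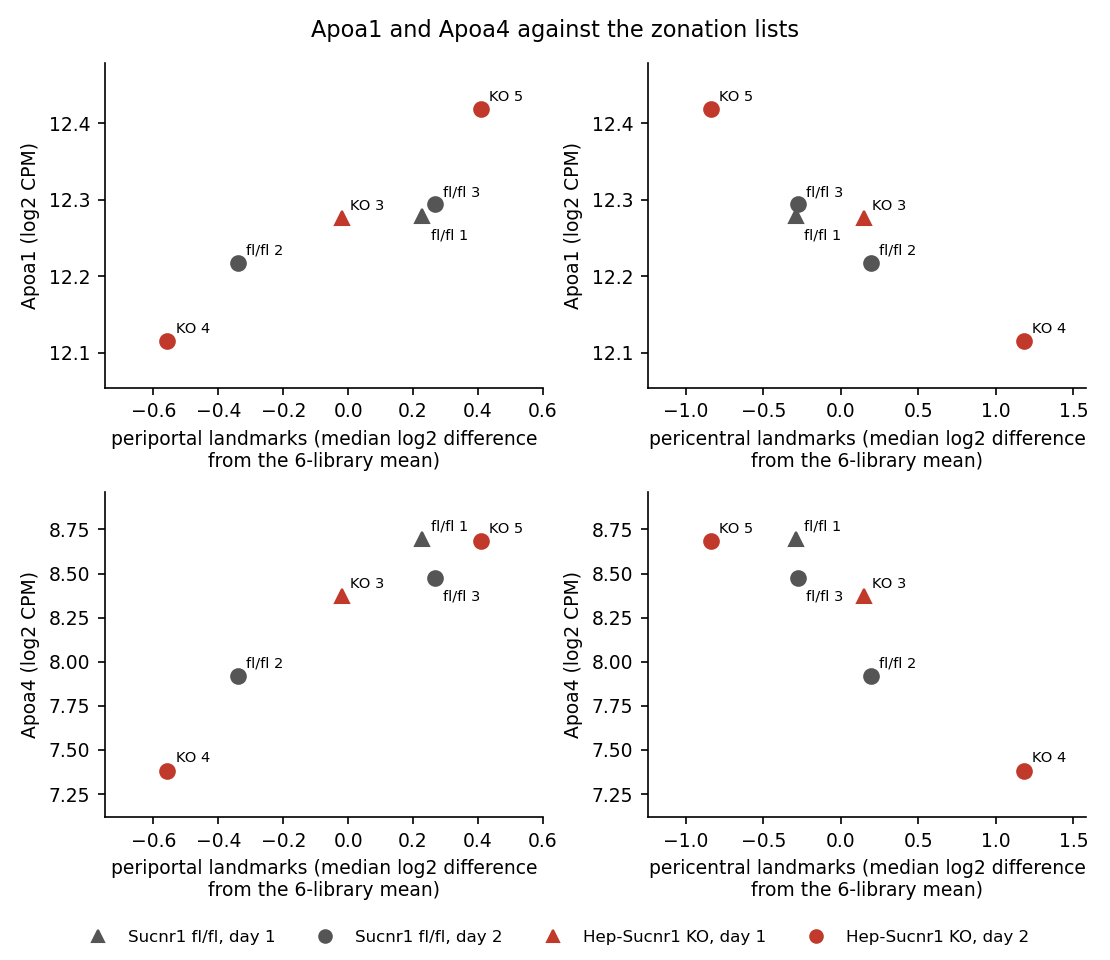
Log2 CPM of Apoa1 (top) and Apoa4 (bottom) against the periportal (left) and pericentral (right) list level, 1 labelled point per library, grey for Sucnr1 fl/fl and red for Hep-Sucnr1 KO. Hep-Sucnr1 KO replicates 4 and 5 form the ends of each panel's x axis, and the genotypes are intermixed between them.

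The *Apoa4* to *Apoa1* log2 ratio nevertheless ranged over 1.15 across libraries (−3.58, −4.30 and −3.82 in control and −3.91, −4.73 and −3.73 in KO; exact permutation p = 0.6), since *Apoa4* moved more. *Apoa5*, further along the cluster, did not follow *Apoa4*: their log2 ratio was 1.17 in KO replicate 4 and between −0.09 and 0.48 in the other 5 libraries. Within the cluster, the log2 ratio of *Apoc3* to *Apoa1* ranged over 0.372, and that of *Apoa2*, which lies on another chromosome, to *Apoa1* over 0.467, each overlapping between genotypes (exact permutation p = 0.8 for both).

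For the 4 genes that varied most, the genes nearest in pattern were taken as those with the highest Pearson r of log2 CPM over the 6 libraries, among 7064 genes with at least 10 CPM on average. For *Apoa4* these were *Lce1d* (r = 0.999), *Col12a1* (0.995) and *Aspg* (0.992). *Lce1d* spanned 2.42 CPM in KO replicate 4 to 25.2 CPM in replicate 5, a wider swing than that of *Apoa4* in the same libraries. *Apoa5* was nearest to the gene with identifier ENSMUSG00000118516 (0.988), *Zc3h3* (0.988) and *Hspa4l* (0.972), *Apob* to *Vcpip1* (0.998), *Gpcpd1* (0.992) and *Fam20b* (0.988), and *Mttp* to *Nckap1* (0.997), *Abca8b* (0.990) and *Larp4* (0.988). With so many genes and only 6 libraries, values this high are a description of the ranking.

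Among 7 other apolipoprotein genes, 5 had enough counts to be tested and all 5 had a log2 fold change above 0, from 0.08 for *Apoh* to 0.32 for *Apon*, with none called at an adjusted p of 0.05 by edgeR. *Apon*, which encodes apolipoprotein N, read 118, 126 and 129.8 CPM in control and 155, 152 and 159 CPM in KO libraries. Its genotypes did not overlap (log2 fold change 0.32 ± 0.11, unadjusted p = 0.0194, adjusted p = 0.998), and it was the only one of the list with an unadjusted p under 0.05. The values of *Apof*, at 0.18 ± 0.13, did not overlap between genotypes either. Over all tested genes, the genotypes did not overlap for 10.6%, and 3.72% had an unadjusted p under 0.05 by edgeR. *Apoh*, beta-2-glycoprotein I, read 965, 820.0 and 985 CPM against 937, 1014 and 970.0 CPM. *Apoc2*, the activator of lipoprotein lipase, was not tested, with at most 0.0607 CPM in any library. Of its exon bases, 79.5% are shared on the same strand with another annotated gene, *Gm44805*, and the part of that overlap in the low count was not tested.

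The machinery around *Apob* and *Mttp* held no gene that passed the test either. In the list of 18 genes of VLDL assembly and secretion, 12 had a log2 fold change above 0 and 6 below (median 0.06), and none had an unadjusted p under 0.05. In 1 of the 18, *Mia2*, the genotypes did not overlap (−0.17 ± 0.11), against 10.6% of all tested genes. *P4hb*, which encodes protein disulfide isomerase, the partner subunit of MTTP, read 1312, 861 and 1135 CPM in control and 1162, 1132 and 1276 CPM in KO libraries, with a log2 fold change of 0.12 ± 0.18. The low control value again came from replicate 2. *Apobec1*, the enzyme that edits *Apob* mRNA, had a log2 fold change of 0.04 ± 0.14, and its log2 ratio to *Apob* was −6.00 ± 0.17 against −5.82 ± 0.25 (SD, n = 3; exact permutation p = 0.4). The ends of the list were *Tm6sf2*, a factor in VLDL lipidation, at 0.25 ± 0.21 and *Aadac*, an arylacetamide deacetylase, at −0.21 ± 0.15.

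For HDL formation and remodelling, 4 of 13 genes had a log2 fold change above 0 and 9 below (median −0.12). None had an unadjusted p under 0.05 for genotype by edgeR. For extraction day 3 of the 13 had, against 7.49% of all tested genes. *Abca1*, which loads lipid onto apolipoprotein A-I, read 875, 593 and 651 CPM in control and 554, 752 and 490.4 CPM in KO libraries (log2 fold change −0.22 ± 0.22). *Lpl*, lipoprotein lipase, was the highest of the list at 0.69 ± 0.45 and *Angptl8*, a feeding-induced inhibitor of lipolysis, the lowest at −0.78 ± 0.42. Each rested on a library that stood apart, with *Lpl* at 25.7 CPM in KO replicate 4 and *Angptl8* at 77.6 CPM in control replicate 1. Without those libraries the *Lpl* value was −0.07 and the *Angptl8* value −0.14. The *Angptl8* value was −0.16 without KO replicate 3. This is not a separate check, because without either day-1 library the genotype estimate rests on day 2 alone (−0.16 there). The *Angptl8* log2 difference of KO over control was −2.07 on day 1, with 1 library each, and −0.14 on day 2 (interaction 1.92 ± 0.50).

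In the lipoprotein uptake list, 2 of 8 genes lay above 0 and 6 below (median −0.02), none with an unadjusted p under 0.05 for genotype by edgeR. The highest was *Lsr*, the lipolysis-stimulated lipoprotein receptor, which read 180.5, 167 and 175 CPM in the controls and 213, 176 and 248 CPM in the KO libraries (log2 fold change 0.29 ± 0.15). The lowest was *Mylip*, an E3 ubiquitin ligase, at −0.17 ± 0.50, which stayed below 2 CPM in every library. It came to 0.41 without KO replicate 3 and also without control replicate 1. These are not separate checks, because both leave the genotype estimate to the day-2 libraries.

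Of 21 transcription factors and coregulators known to act on apolipoprotein genes, 7 had a log2 fold change above 0 and 14 below (median −0.11), and none was called at an adjusted p of 0.05. By edgeR's test for genotype, *Creb3l3* (log2 fold change −0.29 ± 0.11, unadjusted p = 0.0319), *Nr2f2* (−0.60 ± 0.23, unadjusted p = 0.0333) and *Ppargc1a* (−0.63 ± 0.26, unadjusted p = 0.0445) were the genes of the list with an unadjusted p under 0.05. Each had an adjusted p of 0.998. All 3 were lower in every KO library than in every control. Over all tested genes, the genotypes did not overlap for 10.6%, and 3.72% had an unadjusted p under 0.05 by edgeR. CREB3L3 is a liver transcription factor of fasting whose known targets include *Apoa4* and *Apoa5*. *Creb3l3* read 185, 155 and 150.1 CPM in the controls and 149, 132 and 118 CPM in the KO libraries. Control replicate 1 was the highest in *Creb3l3*, *Apoa4* and *Apoa5*. KO replicate 4 was low in *Creb3l3* and the lowest in *Apoa4*. KO replicate 5 was the lowest in *Creb3l3* and near the highest in *Apoa4*. *Nr2f2* and *Ppargc1a* were scarce, below 6 CPM in every library. *Hnf4a* had the highest estimate of the list, 0.19 ± 0.28. It read 176, 252 and 182 CPM in control and 228, 313 and 152 CPM in KO libraries, with its highest value in the library lowest in *Apoa1* and *Apoa4*. The relation of *Creb3l3* and *Hnf4a* levels to those of the apolipoprotein genes was not tested.

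Serum amyloid A proteins are also carried on HDL, and *Saa1* and *Saa2* had larger estimates than any of the 10 genes. In the list of 10 acute phase genes, all 10 had a log2 fold change above 0 (median 0.61), against 50.5% of all tested genes. Of the 10, 7 had an unadjusted p under 0.05, against 3.72% of all tested genes, and none was called by edgeR. This list was set with its direction in these libraries already known. *Saa1* read 1426, 1154 and 1536 CPM in control and 2719, 1894 and 1936 CPM in KO libraries (log2 fold change 0.65 ± 0.18, unadjusted p = 0.00917), and *Saa2* differed by 0.72 ± 0.18 (unadjusted p = 0.00519). The genotypes overlapped for neither gene, nor did they for 10.6% of all tested genes, and the adjusted p was 0.998 for each. *Saa1* and *Saa2* are near-identical copies whose reads the counting could split, and they were named after their values were seen. *Apoa1*, *Apoa2* and *Apom*, in the same libraries, had the overlapping values given above.

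**Figure D5:**
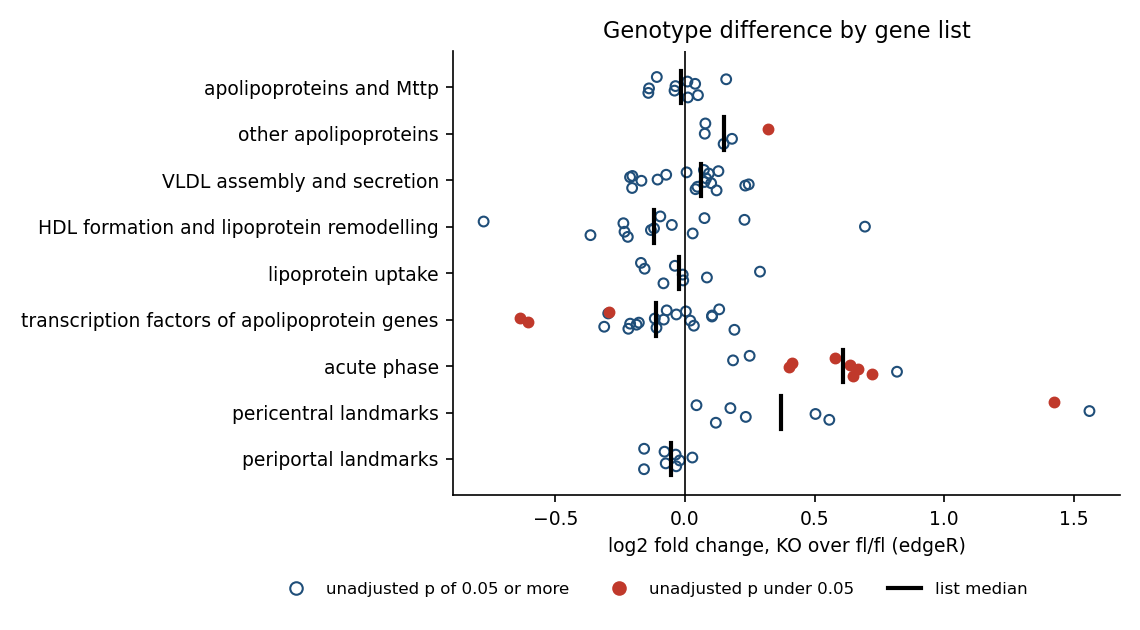
Log2 fold change of Hep-Sucnr1 KO over Sucnr1 fl/fl (edgeR) for every tested gene of each list, filled red where the unadjusted p was under 0.05, with the list median as a bar. The apolipoproteins and Mttp lie between −0.14 and 0.16, and the 10 acute phase genes all lie above 0.

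None of the 10 genes was called for extraction day. In edgeR, none of the 10 had an adjusted p under 0.05 or an unadjusted p under 0.05 for day, against 7.49% of tested genes at the latter, and DESeq2 called 0 of 10. Day-2 minus day-1 log2 differences ran from −0.34 ± 0.35 for *Apoa4* to 0.19 ± 0.18 for *Apob*. For the interaction of genotype and day 0 of 10 had an unadjusted p under 0.05, against 3.69% of tested genes, and *Apoa5* came nearest. Within day 2 alone, the genotype differences ran from −0.12 for *Apob* to 0.18 for *Apoa5*, and within day 1, with 1 library each, from −0.48 for *Apoa5* to 0.23 for *Apom*. Control replicates 1 and 2 carried library indexes of another number series than the other 4 libraries, so that this series and genotype can be told apart only through control replicate 3. With that series as a further term, the estimates ran from −0.38 for *Apoa4* to 0.08 for *Apoa5*, with 0 of 10 called.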

How the data were processed

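RNA-seq of 6 primary hepatocyte libraries was used. Per the labels and the methods, the authors trimmed reads with Trim Galore 0.6.7, aligned them with STAR 2.7.10a to GRCm38, counted read pairs per Ensembl gene by strand with featureCounts, and deposited raw counts. How read pairs matching several genes were treated is not given in the sources used here. Counts were fitted as deposited with edgeR 4.0.16 (quasi-likelihood, TMM, genotype and extraction day) over the 15105 genes with a mean normalized count above 5, with Benjamini-Hochberg adjustment over all of them. DESeq2 1.42.0 was an alternative. P-values measure the spread between these mice. Variation between mice (edgeR's common biological coefficient) was 0.206. CPM per kb used the union of GENCODE exons. The fit was tested on simulated data. Members and lists were chosen with earlier results of these data known. Named beside the 10 genes were the ends of each pathway list, genes with an unadjusted p under 0.05, and genes set by role. Opposite-strand overlaps of *Mttp*, *Apoa4* and *Apoa5* were kept, since counting used strand. A further uptake gene is not reported here.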

Additional observations from a re-analysis of the deposited data

How the results depend on the processing

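With 3 mice a genotype, the data limit how small a difference could be called, as the 95% intervals of the 10 genes show. None of the 10 genes was called for genotype, extraction day or their interaction in any alternative. Over all tested genes, the DESeq2 Wald test called 7 for genotype, 229 for day and 4 for the interaction, where edgeR called 0 of each, and edgeR called 122 for day without the filter on low counts. Leaving out each library in turn gave 0 to 29 genes called for day, 29 without *Sucnr1* fl/fl replicate 2, and left 0 to 2 of the 10 genes without overlap between genotypes, where 16.1 to 22.5% of all tested genes did not overlap. Near-zero estimates changed sign. *Apoa1* and *Apoe* came to −0.010 and −0.011 with DESeq2, −0.0099 and −0.011 with its size factors, −0.020 and −0.015 with library size alone, −0.0083 and −0.0090 with no filter and −0.00039 and −0.0014 with filterByExpr. With the index series added to the model, *Apoa1* came to −0.028, *Apoa2* −0.081, *Apoa5* 0.085, *Apoc3* −0.19, *Apoe* −0.16, *Apoh* −0.034, *P4hb* −0.0050 and *Apobec1* −0.10. In day-2 libraries alone, *Apoa5* was 0.17, *Apoc1* 0.0089, *Apobec1* −0.12 and *Mylip* 0.41. Leaving out either day-1 library rests the genotype estimate on the same day-2 libraries. Leave-one-out ranges that crossed 0 were −0.081 to 0.092 for *Apoa1*, −0.013 to 0.12 for *Apoa2*, −0.62 to 0.13 for *Apoa4*, −0.11 to 0.18 for *Apoa5*, −0.12 to 0.017 for *Apoc1*, −0.084 to 0.17 for *Apoc3*, −0.086 to 0.10 for *Apoe*, −0.013 to 0.14 for *Apoh*, −0.028 to 0.27 for *P4hb*, −0.12 to 0.17 for *Apobec1*, −0.068 to 1.07 for *Lpl*, −0.61 to 0.41 for *Mylip* and −0.12 to 0.46 for *Hnf4a*. The causes were not tested. No paired analysis was possible because the labels give no pairing of mice between the genotypes.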
